A study of Mus musculus with 6 samples.

Results

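The complement genes described here are 9 symbols fixed by name: the protease genes C1ra and C1s1 and the component C4b of the classical pathway, the central component C3, factor B (Cfb) of the alternative pathway, and the inhibitors Serping1, Cd55, Cd59a and Cd46. Of these, 8 have a row among the 15528 gene symbols of the count table. Serping1, the C1 inhibitor, is not listed in the tables used here, and no value is given for it. The cells were mouse cells whose labels call them lymphatic endothelial cells, which line lymph vessels, and 2 groups of 3 libraries were compared: cells given a treatment of red blood cells, and control cells with no treatment named, both labelled 24 h. The labels give no strain, cell source or amount of red blood cells. The title of the series places the cells in a study of bleeding beneath the arachnoid membrane and of the neck lymph nodes, so the comparison asks which transcripts differ once red blood cells are present. Nothing in the labels says that replicates came from separate cultures, so the spread on which p-values rest may be only technical.

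Complement is a cascade of plasma and cell-surface proteins that tags targets for engulfment and can pierce membranes. In the classical pathway the protein C1q binds a target and activates 2 proteases that travel with it, C1r and then C1s; C1s cleaves C4 and C2 to build an enzyme that splits C3. Factor B extends the same step through the alternative pathway, and inhibitors on the surface of host cells limit it. Many tissues outside the liver make some of these proteins, endothelial cells among them.

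Total counts ranged from 18000112 to 18327247 in the libraries with red blood cells and from 17263359 to 18381419 in the control libraries. Control replicate 2 stood apart, its counts differing from those of the other controls by 27.1 and 25.7 chi-square units for each gene compared, beside 1.96 between control replicates 1 and 3. Markers did not establish the labelled cell type. Of 22 lymphatic and general endothelial markers 15 are listed and 6 were tested, of which 1 was called, beside 1.46% of all tested genes. The called marker was the scavenger receptor gene Stab1, at 63.5 ± 0.50 CPM with red blood cells and 30.9 ± 5.86 CPM in controls (SD, n = 3 each). Its log2 fold change was 1.04 (edgeR adjusted p = 0.0029). Prox1 and Lyve1, which define lymphatic endothelium, are not listed, and Kdr had 1 count over the red blood cell libraries and 0 over the controls. The other tested endothelial markers were detected in both groups and not called. Over the red blood cell libraries and the controls, Eng had 5377 and 5303 counts, Pecam1 747 and 802, and Flt4 191 and 193. The rest of the listed endothelial markers, Kdr among them, were near 0 in both groups and not tested. Of these, Vwf had 15 and 8 counts, Cdh5 11 and 7, Esam 4 and 7, and Pdpn 2 and 6. The 2 highest markers of that list were Nrp2 (361 ± 16.1 CPM with red blood cells and 272 ± 52.5 CPM in controls; SD, n = 3 each) and Nr2f2 (146 ± 3.46 and 161 ± 1.38 CPM). CPM are counts per total count of the library, scaled to 1000000. Markers of fibroblasts and mural cells summed to between 452 and 470 CPM with red blood cells and between 443 and 494 CPM in controls, most of it Col1a2. Epithelial and mesothelial markers summed to between 614 and 636 CPM and between 658 and 738 CPM, most of it Krt8 and Msln. No tested marker of either list was called between the groups.

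The promoters of the complement components that were called between the groups (C3, C1s1, C1ra and C1s2), and of C1rb, the near copy of C1ra that was not called, are shown first because C1ra, C1s1, C1rb and C1s2 all lie on chromosome 6 while C3 lies on chromosome 17. Each run is the 250 bases before the start site in RefSeq's table (build GRCm38.p6), 5′ to 3′ on the strand of the gene. Capitals mark matches to 2 motifs, the C/EBP core TTGCNNAA and the GAS element TTCNNNGAA; no 2 matches overlap.
C3, chr17:57228137-57228386, - strand: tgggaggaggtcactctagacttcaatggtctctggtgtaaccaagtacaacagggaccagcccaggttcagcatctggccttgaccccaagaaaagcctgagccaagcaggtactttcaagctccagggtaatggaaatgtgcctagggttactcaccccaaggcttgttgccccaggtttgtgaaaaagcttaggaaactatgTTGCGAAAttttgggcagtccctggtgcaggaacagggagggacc
C1s1, chr6:124542360-124542609, - strand: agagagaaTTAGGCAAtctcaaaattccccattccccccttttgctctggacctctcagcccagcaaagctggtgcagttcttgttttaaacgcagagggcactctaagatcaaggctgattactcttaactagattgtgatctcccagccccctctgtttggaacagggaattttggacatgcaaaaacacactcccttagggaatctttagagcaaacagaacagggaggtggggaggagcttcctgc
C1s2, chr6:124636086-124636335, - strand: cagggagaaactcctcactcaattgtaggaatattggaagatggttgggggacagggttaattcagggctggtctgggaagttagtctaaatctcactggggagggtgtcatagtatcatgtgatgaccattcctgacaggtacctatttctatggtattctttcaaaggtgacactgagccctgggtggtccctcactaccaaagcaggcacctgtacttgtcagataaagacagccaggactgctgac
C1ra, chr6:124512371-124512620, + strand: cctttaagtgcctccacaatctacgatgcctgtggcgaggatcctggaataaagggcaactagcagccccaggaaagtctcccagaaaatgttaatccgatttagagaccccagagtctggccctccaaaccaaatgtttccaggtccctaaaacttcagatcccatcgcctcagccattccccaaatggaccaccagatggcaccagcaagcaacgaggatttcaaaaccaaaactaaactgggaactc
C1rb, chr6:124570180-124570429, + strand: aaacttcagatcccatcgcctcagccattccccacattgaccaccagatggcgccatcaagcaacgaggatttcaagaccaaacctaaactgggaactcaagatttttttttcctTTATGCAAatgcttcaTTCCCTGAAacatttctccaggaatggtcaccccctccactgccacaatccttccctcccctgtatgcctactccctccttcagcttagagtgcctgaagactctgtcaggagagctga
RefSeq's table held windows for 6 of the 9 members (C3, C1ra, C1s1, Cd55, Cd59a and Cd46), with a second start site for C1s1. The windows were searched on both strands. A C/EBP match lay at bases -45 to -38 of C3 and at -242 to -235 of the printed C1s1 window, and at -135 to -128 of C1rb, counted back from the start site, but nowhere in the window of the second C1s1 start site, against a match in 9.56% of all 32851 windows of this length. The only GAS match in the 5 printed windows lay in C1rb at -119 to -111 (7.02% of all windows). The NF-kB consensus, present in 7.25% of all windows, was in none of the 5. The windows of C1ra and C1rb shared a run of 34 bases, whereas the longest run shared by C1s1 and C1s2 was 8 bases. The run of 34 begins at the first base of the C1rb window but lies in the last part of the C1ra window. The C1ra and C1rb windows are thus offset. Both C1rb matches lie past the stretch that resembles the end of the C1ra window, so they do not compare like positions of these copies. The start of C1rb in RefSeq was not found at the start of a GENCODE M21 transcript, so its start site is less certain than the others. A match is a description of letters only, and the motifs were picked with the results known.

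Of the complement genes, C3, C1s1 and C1ra were higher with red blood cells. C1s1 rose 2.45-fold and C1ra 1.31-fold, while C3 stood at 131 counts over the 3 red blood cell libraries against 5 counts over the 3 controls. The inhibitor Cd46 did not pass the test, and C4b, Cfb, Cd59a and Cd55 had too few counts to be tested. Calls are those of edgeR's quasi-likelihood test at a Benjamini-Hochberg adjusted p under 0.05 over 11208 genes, of which 1.46% were called, 1.16% higher and 0.303% lower. The 3 calls among 4 tested members are not independent support for a change of complement as a group, since C3 reached the low-count filter only through the libraries with red blood cells and the members were picked with the results known.

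**Figure D1:**
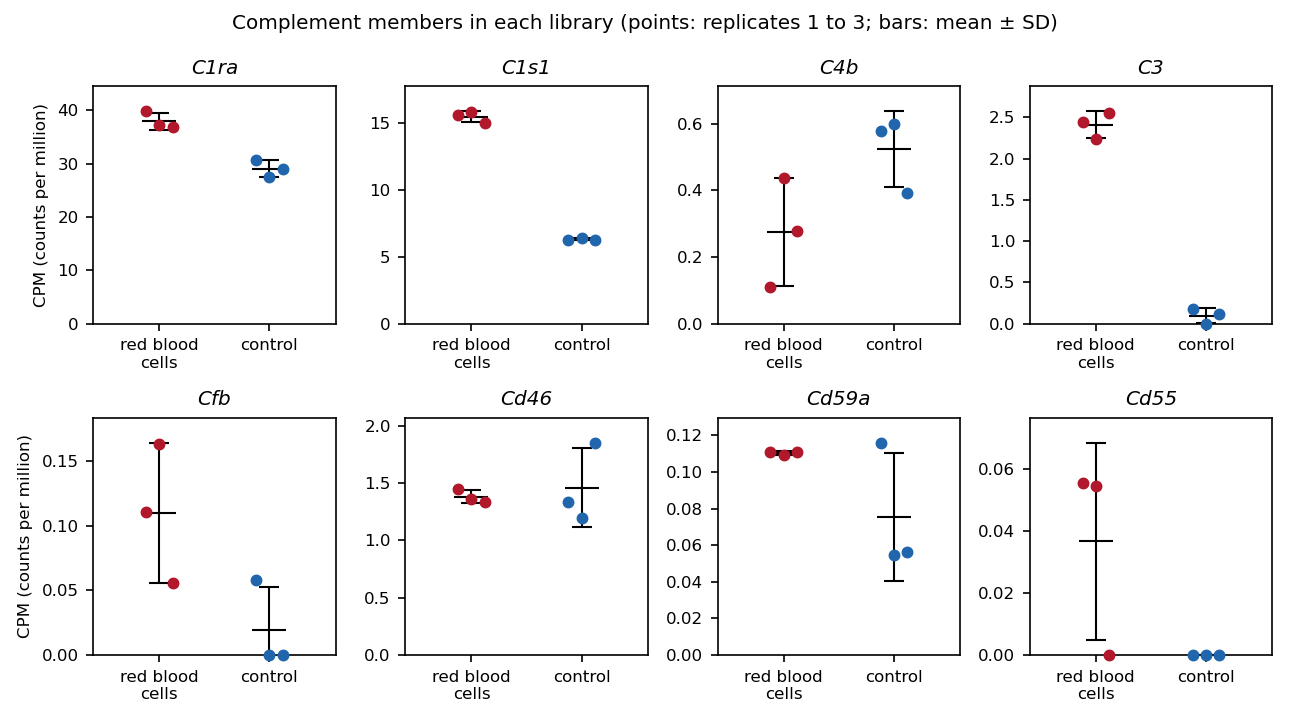
CPM of the 8 listed complement members in each library, red blood cells on the left and control on the right of each panel; points are replicates 1 to 3 and bars the mean ± SD. C1ra, C1s1 and C3 have groups that do not overlap, and the other 5 members have groups that overlap.

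C1s1 encodes C1s, the protease of the C1 complex that cleaves C4 and C2. It had 281, 290 and 271 counts in red blood cell replicates 1 to 3, against 108, 118 and 112 counts in control replicates 1 to 3. On the CPM scale these were 15.5 ± 0.40 with red blood cells and 6.32 ± 0.09 in controls (SD, n = 3 each). All 3 libraries with red blood cells lay above all 3 controls, as did 10.4% of all tested genes; counting both directions, 19.6% of tested genes had groups that did not overlap. The log2 fold change was 1.29 ± 0.08 SE (adjusted p = 6.2e-05), rank 15 of 11208 by p and rank 50 by fold. Leaving out any one library gave values between 1.28 and 1.32.

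C1ra encodes C1r, the protease that activates C1s. Its counts were 716, 682 and 664 with red blood cells and 529, 505 and 517 in controls, or 38.0 ± 1.59 and 29.0 ± 1.59 CPM. The groups did not overlap, but the step between them was small. Its log2 fold change was 0.39 ± 0.07 SE (adjusted p = 0.027), rank 118 by p. The call was not kept in every omission of 1 library. The adjusted p was 0.10 without control replicate 3 and 0.19, 0.14 and 0.11 without red blood cell replicate 1, 2 and 3. The log2 fold changes lay between 0.35 and 0.43 over all 6 omissions.

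The 2 partner proteases moved by different amounts. Within a library the ratio of C1s1 to C1ra, each in FPKM (counts scaled to the length of the gene model and to the library total, as deposited), was 0.349, 0.378 and 0.363 with red blood cells and 0.182, 0.208 and 0.193 in controls. The mean log2 ratio was -1.46 ± 0.06 with red blood cells and -2.37 ± 0.10 in controls (SD, n = 3 each), a difference of 0.91. The exact two-sided permutation test gave p = 0.10, the smallest that 20 splits of 6 libraries allow.

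Both proteases have near copies in the mouse, C1s2 and C1rb, and reads can be shared with them. In the GENCODE M21 transcripts, 24.3% of the 50-base words of the longest C1s1 transcript also occurred in C1s2, and 48.0% of those of C1ra also occurred in C1rb. C1s2 had 50, 49 and 38 counts with red blood cells against 20, 12 and 20 in controls, without overlap. It rose by a log2 fold change of 1.37 ± 0.24 SE (adjusted p = 0.027), and this call was lost without any one library other than control replicate 2 (adjusted p between 0.0012 and 0.16 over the 6 omissions). C1rb had 163, 157 and 139 counts against 122, 137 and 161, with groups that overlap, and was not called (0.11 ± 0.12 SE; adjusted p = 0.76). The ratio of C1ra to C1rb in FPKM was 3.44, 3.41 and 3.75 with red blood cells and 3.40, 2.89 and 2.52 in controls, without overlap (difference of mean log2 ratios 0.28; exact two-sided permutation p = 0.10, the smallest possible). That of C1s1 to C1s2 ranged from 4.82 to 6.12 with red blood cells and from 4.63 to 8.44 in controls, with groups that overlap. With the counts of each pair summed, an alternative chosen after seeing the data, the C1s1 and C1s2 sum had a log2 fold change of 1.31 (adjusted p = 6.2e-05) and the C1ra and C1rb sum 0.33 (adjusted p = 0.046).

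**Figure D2:**
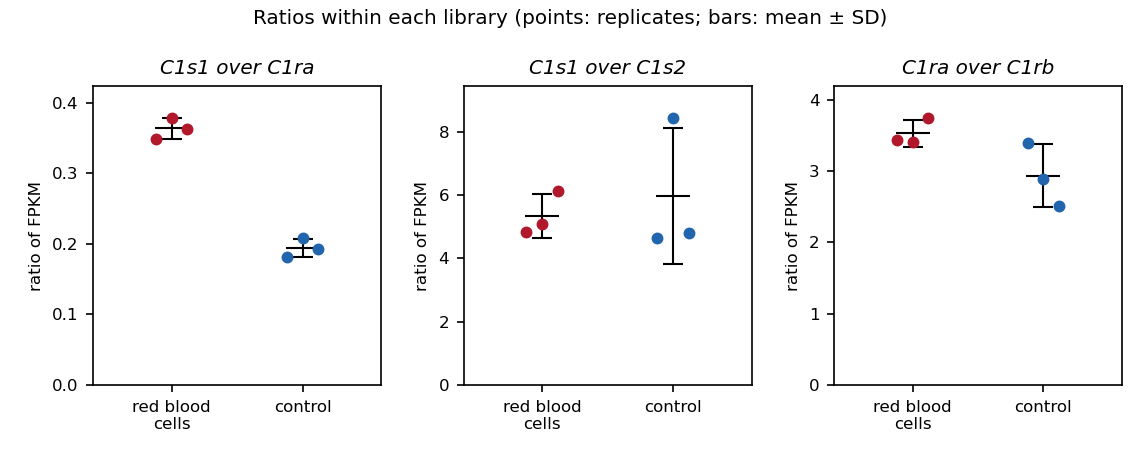
Ratios of FPKM between protease genes within each library, red blood cells on the left and control on the right; points are replicates 1 to 3 and bars the mean ± SD. The ratio of C1s1 to C1ra lies between 0.349 and 0.378 with red blood cells and between 0.182 and 0.208 in controls, the ratio of C1ra to C1rb lies between 3.41 and 3.75 and between 2.52 and 3.40, and the ratio of C1s1 to C1s2 overlaps between the groups.

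C4b encodes C4, the first substrate of C1s. Its counts were 2, 8 and 5 with red blood cells and 10, 11 and 7 in controls, a sum of 15 against 28. The groups overlapped, since 8 counts in red blood cell replicate 2 lay above the 7 counts of control replicate 3. The ratio of the summed counts, scaled to the library totals, was 0.527, with an exact 95% interval of 0.262 to 1.02 that covers counting error only, and without a low-count filter the adjusted p was 0.63. Thus C4b had the lower mean with red blood cells, opposite in sign to the protease genes above it in the cascade, and did not pass a test.

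C3 is the component on which all complement pathways converge. It had 44, 41 and 46 counts with red blood cells and 3, 0 and 2 counts in controls. The libraries with red blood cells lay close together at 2.41 ± 0.16 CPM, and the highest control had 0.174 CPM. The fitted log2 fold change was 4.59 ± 0.41 SE (adjusted p = 0.00067), which for so few control counts depends on the fit. The ratio of the summed counts, scaled to the library totals, was 25.8, with an exact 95% interval of 10.8 to 80.7 for counting error only. Without control replicate 1 the log2 fold change was 5.28 and without control replicate 2 it was 4.02, and C3 kept its call in all 6 omissions (highest adjusted p = 0.0062).

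Cfb encodes factor B, the protease subunit of the alternative C3 convertase. It had 2, 3 and 1 counts with red blood cells and 1, 0 and 0 in controls. The ratio of the summed counts, scaled to the library totals, was 5.91 with an interval of 0.717 to 272, so a difference was not detectable at this depth. Properdin (Cfp), which stabilises that convertase, had 67, 68 and 78 counts with red blood cells and 78, 69 and 75 in controls, and was not called (-0.08 ± 0.13 SE; adjusted p = 0.83). Hc, the gene of C5, which is the next component cleaved after C3, had 21, 21 and 30 counts against 22, 14 and 23 and was not called either (0.26 ± 0.27 SE; adjusted p = 0.74).

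Transcripts of blood cells were present in the same libraries in which C3 was high. Of 20 leukocyte markers 17 are listed, 6 were tested and 4 were called higher (Ptprc, Adgre1, Lyz2 and Itgb2), beside 1.16% of all tested genes. As with C3, Ptprc, Adgre1 and Lyz2 reached the low-count filter only through the libraries with red blood cells, so this count is no support for a change of the list. The summed level of the 17 was 52.4 to 58.3 CPM with red blood cells and 43.3 to 49.9 CPM in controls, most of it Csf1r (24.7 ± 1.53 and 25.0 ± 2.72 CPM) and Cd68 (21.2 ± 0.80 and 20.6 ± 1.39 CPM), which were not called. The markers at 0 in all controls numbered 5. Among these, the pan-leukocyte gene Ptprc had 12, 13 and 11 counts and the macrophage gene Adgre1 16, 15 and 17 counts with red blood cells. All 5 tested genes of the 16 erythroid markers, 15 of them listed, were called higher, beside 1.16% of all tested genes. As with C3, Hba-a1, Hba-a2, Hbb-bt and Alas2 reached the low-count filter only through the libraries with red blood cells. This count is thus no support for a change of the list. The list summed to 539 to 624 CPM against 3.75 to 4.43 CPM, most of it globin genes. Hbb-bs, the highest, had 331 ± 29.6 and 1.52 ± 0.20 CPM, and Hba-a1 had 138 ± 5.91 and 0.69 ± 0.15 CPM. The untested erythroid markers were near 0 in both groups and did not all rise. Klf1 had 12 counts against 20, Hemgn 11 against 12 and Slc4a1 2 against 0. Of 7 platelet markers 6 are listed, and neither of the 2 tested, Ppbp and Gp1bb, was called. The list summed to 1.94 to 2.61 CPM against 1.51 to 2.12 CPM. The part of added blood cells in the results for C3, C1s1 and C1ra was not tested. In bulk RNA, more cells of a type and more RNA per cell cannot be told apart.

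The membrane inhibitors did not show a call. Cd46, a cofactor for the cleavage of deposited C3b and C4b that in mice is best known from sperm, had 26, 25 and 24 counts with red blood cells and 23, 22 and 33 in controls. The 3 libraries with red blood cells lay inside the range of the controls, and the log2 fold change was -0.08 ± 0.22 SE (adjusted p = 0.91), with a ratio of summed counts, scaled to the library totals, of 0.946 and an interval for counting error of 0.680 to 1.32. Cd59a, which blocks assembly of the membrane attack complex, had 2 counts in each library with red blood cells and 2, 1 and 1 in controls. The ratio of its summed counts, scaled to the library totals, was 1.48 with an interval of 0.350 to 7.11. Cd55, which speeds the decay of C3 convertases, had 1, 1 and 0 counts with red blood cells and 0 in every control. Both groups lie under the floor of 3 counts per group, 0.056 CPM in the controls, so no fold is given. The copy Cd55b is not listed, and the copy Cd59b had 1 count over all libraries. In rodents a further membrane regulator, Crry, encoded by Cr1l, does the work of both Cd55 and Cd46. Cr1l had 851, 878 and 837 counts with red blood cells and 816, 901 and 771 in controls, or 47.2 ± 0.72 and 46.5 ± 2.98 CPM, and was not called (0.02 ± 0.06 SE; adjusted p = 0.90).

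Levels of different genes can be set side by side per length, in FPKM. With red blood cells the order was C1ra (13.7 ± 0.58), C1s1 (4.99 ± 0.13), C3 (0.463 ± 0.031), Cd46 (0.451 ± 0.019), C4b (0.0502 ± 0.0297), Cfb (0.0398 ± 0.0196), Cd59a (0.0332 ± 0.0003) and Cd55 (0.0030 ± 0.0026; SD, n = 3 throughout). In controls it was C1ra (10.5 ± 0.57), C1s1 (2.04 ± 0.03), Cd46 (0.477 ± 0.113), C4b (0.0956 ± 0.0208), Cd59a (0.0226 ± 0.0105), C3 (0.0183 ± 0.0169), Cfb (0.0070 ± 0.0121) and Cd55 at 0. Neighbours that did not differ beyond their spread were C3 and Cd46 and then C4b, Cfb and Cd59a with red blood cells, and Cd59a, C3, Cfb and Cd55 in controls. C3 thus stood next to Cd46 with red blood cells and among the members near 0 in controls. Cr1l, with 24.6 ± 0.37 FPKM with red blood cells and 24.2 ± 1.55 FPKM in controls, lay above every member in both groups.

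**Figure D3:**
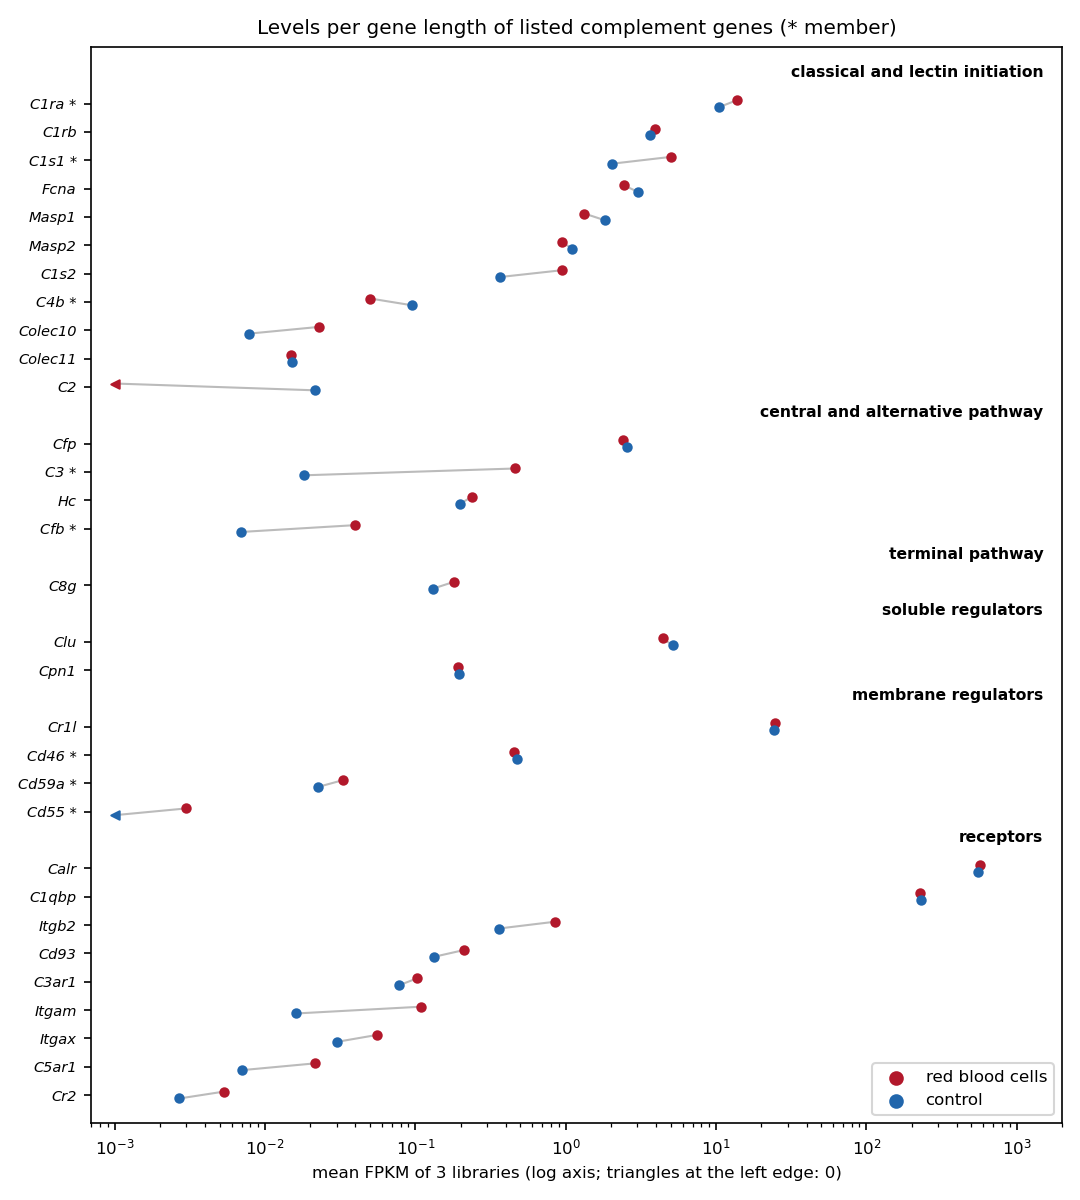
Mean FPKM of 3 libraries on a log axis for 31 complement genes by role (members, and other listed genes with at least 3 counts over all libraries), with red blood cells drawn above control for each gene; members carry an asterisk and triangles at the left edge mark a mean of 0. The drawn terminal component C8g and the soluble regulator Cpn1 lie under 1 FPKM in both groups, and C3 has the widest gap among the members with a level above 0 in both groups.

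Most of the wider pathway was silent or not called. Of 57 complement genes grouped by role, 42 are listed and 17 were tested. Of these, 5 were called higher and 0 lower, beside 1.16% and 0.303% of all tested genes. The median log2 fold change was 0.05, against -0.00267 over all tested genes. The 5 include the members C3, C1ra and C1s1, picked with the results known, so the count is not independent support. Without the members, 2 of 13 tested genes were called higher, with a median log2 fold change of 0.02. Positive fold changes numbered 10 of 17, beside 49.0% of all tested genes. In classical and lectin initiation 3 of 7 tested genes were called higher (C1ra, C1s1 and C1s2). In the central and alternative group it was 1 of 3 (C3), among receptors 1 of 4 (Itgb2), and among the 1 tested soluble and 2 tested membrane regulators none. The 5 calls became 8 (7 higher, 1 lower) without control replicate 2, 3 without control replicate 1, and 2 without control replicate 3 or any one library with red blood cells. None of the 3 listed terminal components was tested: C8g had 5, 4 and 5 counts with red blood cells and 4, 4 and 2 in controls, and C9 had 1 count in each group.

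Transcripts of C1q, the target-binding protein of the classical pathway, were near 0. C1qa had 1 count and C1qb 2 counts over the libraries with red blood cells, both 0 in controls, and C1qc is not listed. C1s1 and C1ra were thus measured in cells with almost no C1q transcript. On the lectin side, the binding protein ficolin A (Fcna) had 65, 53 and 63 counts with red blood cells and 70, 93 and 61 in controls and was not called (-0.33 ± 0.17 SE; adjusted p = 0.58). Masp1 and Masp2, the lectin pathway's counterparts of C1r and C1s, were picked after their values were seen. Masp1 had 176, 180 and 179 counts with red blood cells and 245, 209 and 267 in controls, with groups that do not overlap (9.19% of all tested genes were without overlap and lower). It did not pass the test (-0.45 ± 0.11 SE; adjusted p = 0.13), but was called lower without control replicate 2 (-0.57; adjusted p = 1.4e-05) and in voom with library weights (-0.56; adjusted p = 7.8e-05). Masp2 had 40, 66 and 71 counts against 69, 73 and 63 and was not called (-0.23 ± 0.20 SE; adjusted p = 0.70).

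Among soluble regulators, clusterin (Clu), which binds the forming membrane attack complex, had 162, 193 and 184 counts with red blood cells and 194, 239 and 186 in controls and was not called (-0.22 ± 0.11 SE; adjusted p = 0.56). Cpn1, the catalytic subunit of the carboxypeptidase that inactivates the fragments C3a and C5a, had 19 counts in each group. Factor I (Cfi), which cleaves deposited C3b, had 0 counts with red blood cells and 1 count in controls.

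Among the receptors, Itgb2, the chain that complement receptors 3 and 4 of leukocytes share, was higher with red blood cells. It had 44, 56 and 35 counts with red blood cells and 21, 15 and 20 in controls, with a log2 fold change of 1.24 ± 0.24 SE (adjusted p = 0.046). The groups did not overlap. Itgb2 is itself one of the leukocyte markers that were higher in these libraries, and its call was lost without any one library other than control replicate 2 (adjusted p between 0.0028 and 0.22). Its partner Itgam, picked after its values were seen and too low to be tested, had 10, 12 and 6 counts against 1, 0 and 3. The receptors for C3a and C5a were near 0: C3ar1 had 10, 9 and 5 counts with red blood cells and 7, 7 and 4 in controls, and C5ar1 had 3 counts against 1. The C1q-binding proteins with the highest levels in the list, Calr and C1qbp, which also have major roles inside the cell, had log2 fold changes of 0.05 ± 0.06 and -0.02 ± 0.08 SE without a call.

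**Figure D4:**
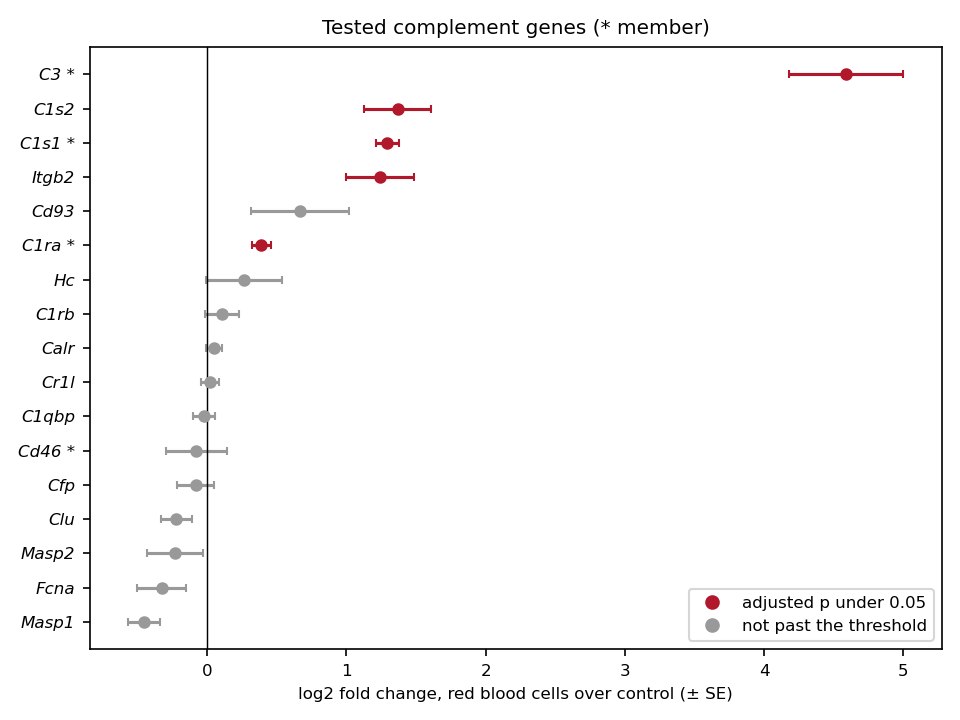
Log2 fold change (red blood cells over control, ± SE) of the 17 tested complement genes, members marked with an asterisk and genes past the adjusted p threshold of 0.05 in red. C3 lies at 4.59, C1s2, C1s1 and Itgb2 between 1.24 and 1.37, and C1ra at 0.39, and the 12 other genes did not pass.

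The genes whose profile over the 6 libraries was most like that of each called member were found by the root mean square difference of centred log2 CPM, as a description with no test. For C1s1 they were Prl2c2 (0.081), Tnfrsf9 (0.097) and Relb (0.12), a secreted protein of the prolactin family, a TNF receptor family member and an NF-kB subunit. For C1ra they were Dpy19l1 (0.035), Irf1 (0.038) and Serpinb9c (0.040), of which Irf1 encodes a transcription factor of interferon responses. For C3 they were Ccl3 (0.40), Cd74 (0.43) and Clec4e (0.47), a chemokine, the invariant chain of class II molecules and a C-type lectin receptor of myeloid cells. The differences for C3 were several times those for the proteases, and C3 and its neighbours have few control counts. In the same order, log2 fold changes were 1.15, 1.32 and 1.06 for the neighbours of C1s1 and 0.40, 0.34 and 0.38 for those of C1ra. For the neighbours of C3 they were 4.87, 7.48 and 7.27, beside 4.59 for C3. Likeness over 6 libraries thus in part restates the group difference, and shared regulation was not tested.

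**Figure D5:**
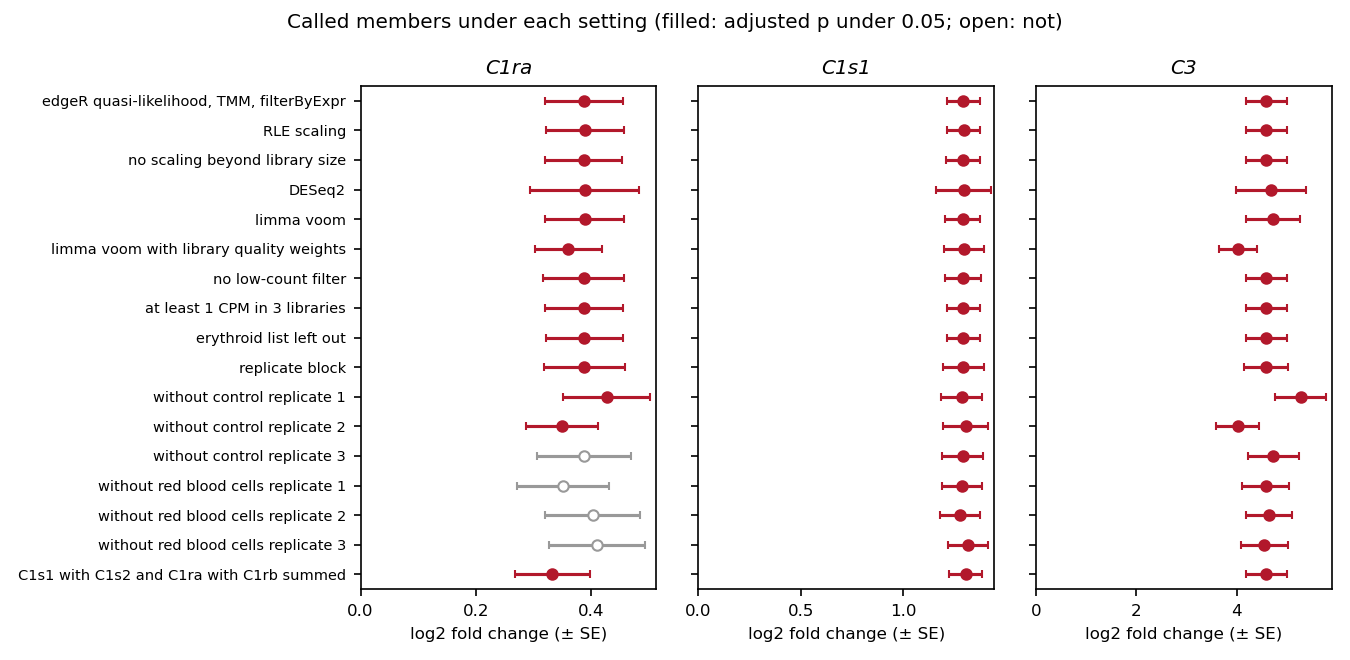
Log2 fold change (± SE) of C1ra, C1s1 and C3 under each setting and with each library left out; filled points have an adjusted p under 0.05 and open points do not. C1s1 and C3 are filled in all 17 fits, and C1ra is open without control replicate 3 and without each red blood cell replicate.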

How the data were processed

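RNA of cells labelled as lymphatic endothelial was sequenced in 6 stranded poly(A) libraries, per the labels' protocols. The submitters' processing notes name the build GRCm39; of the aligner, counter, strand setting and annotation, the sources used here name none. The authors deposited raw counts per gene symbol and FPKM, which departed from counts per implied gene length and library total by at most 3.7e-08 over 11164 genes, so both describe the same reads. Groups and replicate numbers come from the titles.

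The main test was edgeR 4.0.16 (R 4.3.3): filterByExpr (minimum count 10, minimum total 15) kept 11208 genes with 99.96% of the counts, with TMM scaling, glmQLFit and glmQLFTest on the group, two-sided, Benjamini-Hochberg adjusted over all tested genes. The standard error is the log2 fold change over the square root of F. FPKM were used as levels, untested, and for the ratios between protease genes, whose exact test is named where the ratios are given. Intervals of count ratios are exact (Clopper-Pearson) and use the counts summed over each group. They and the floor of 3 counts per group thus cover counting error only and leave out the spread between replicates. The reads carry no molecular identifiers and so are not independent, which the intervals do not allow for. The procedure was tested on simulated data.

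The members, lists and motifs were chosen with earlier results of these data known. Named genes are all members, called pathway genes, the 2 highest by FPKM in each role, the 3 nearest in profile to each called member, and the 2 highest of each list of other cell types; others are marked in the text as picked after their values were seen or are given as counts. Alternatives were RLE and no scaling, DESeq2 1.42.0, voom of limma 3.58.1 with and without library weights, no filter, 1 CPM in 3 libraries, the erythroid list left out, the replicate block and each library left out with the filter rerun. Summing gene copies was added after seeing the data. Promoters come from RefSeq (GRCm38.p6) and are not on the build of the counts. One gene of the pathway list is not reported here; the counts over the list include it.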

Additional observations from a re-analysis of the deposited data

How the results depend on the processing

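The 3 called members kept their call under all 9 other settings of scaling, test, filter and block and with gene copies summed, with log2 fold changes of 1.29 to 1.31 for C1s1, 4.02 to 4.73 for C3 and 0.33 to 0.39 for C1ra. With each library left out the number of called members was 2 to 3, C1s1 lay between 1.28 and 1.32, C3 between 4.02 and 5.28 and C1ra between 0.35 and 0.43, where 4 omissions ended its call. Cd46 was between -0.21 and 0.13 and turned positive (0.13) without control replicate 3. Called pathway genes numbered 2 to 8; the 8, without control replicate 2, were C1ra, C1s1, C1s2, C3, Calr, Itgam and Itgb2 higher and Masp1 lower. Over all genes the calls numbered 164, 651 with library weights in voom, and 62 to 899 with a library left out, the highest without control replicate 2; the cause was not tested. Itgb2 lost its call in voom, with the filter of 1 CPM in 3 libraries and with the replicate block (adjusted p = 0.061, 0.051 and 0.076). The labels do not say whether same-numbered libraries are paired. Correlations of their deviations were -0.01, 0.04 and 0.06, against -0.07 to 0.03 for pairs with unlike numbers, which does not settle it. The replicate block left the log2 fold changes of C1ra, C1s1 and C3 at 0.39, 1.29 and 4.59, with 3 members called. For Cfb, Cd55, Cd59a and C4b, with 2 to 43 counts over all libraries, depth limits what can be seen.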
